A study of Mus musculus with 42 samples.

Results

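Podocyte marker genes were followed in the kidneys of mice on either of a pair of diets over a day. The members were the 6 genes Nphs1, Podxl, Wt1, Synpo, Ptpro and Cdkn1c, chosen by name as markers of podocytes, with no threshold on their values, out of 56691 genes in each deposited table. All 6 were found by their Ensembl identifiers. RNA was sequenced from the kidneys of wild-type male C57BL/6 mice on a cycle of 12 h light, then 12 h dark. The chow group ate a standard diet. The EpSA group ate high-fat food with 3% EpSA, a compound the labels do not spell out, in a study of heated frying oil. Feeding lasted 14 weeks from 6 weeks of age, and kidneys were collected at zeitgeber time (ZT, hours after lights on) 1, 5, 9, 13, 17, 21 and 25. Of each diet and time 3 mice are listed, which makes 42 libraries. Values were available as 14 means, 1 for each combination of diet and time and termed pools, in FPKM (fragments counted per length of transcript and per depth of library). Spread between mice and read depth are therefore unknown. Mice on high-fat food alone were not analysed here, and the effect of fat cannot be told apart from that of EpSA.

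Podocytes are the epithelial cells that wrap the capillaries of the glomerulus, the filter at the head of each nephron. Their foot processes interlock, and the gap between neighbouring processes is bridged by the slit diaphragm, a protein sheet that holds back plasma proteins. Podocytes sit in the renal cortex, hardly divide in the adult and are replaced poorly when lost, which is why their markers are read as a sign of the state of the filter. They are a small share of the cells of a kidney. In kidney RNA, more podocytes and more of a transcript per podocyte cannot be told apart.

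The 6 genes fall into 3 roles. At the slit diaphragm and the foot process surface, Nphs1 encodes nephrin, the adhesion protein of the slit diaphragm. Podxl encodes podocalyxin, a charged sialomucin of the free surface that blood vessel endothelium also makes, and Ptpro encodes a receptor tyrosine phosphatase of the foot process. Inside the foot process, Synpo encodes synaptopodin, an actin-binding protein. In the nucleus, Wt1 encodes a zinc finger transcription factor needed for podocyte identity, and Cdkn1c encodes p57, an imprinted inhibitor of cyclin-dependent kinases that marks podocytes that have left the cell cycle.

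Positions are from GENCODE on build GRCm38, and the authors may have used another. Nphs1 (ENSMUSG00000006649) lies on the plus strand of chromosome 7 from 30458315 to 30487223. Cdkn1c (ENSMUSG00000037664) lies on the minus strand of the same chromosome from 143458339 to 143461050. Podxl (ENSMUSG00000025608) lies on the minus strand of chromosome 6 from 31519488 to 31563981, and Ptpro (ENSMUSG00000030223) on the plus strand of chromosome 6 from 137252319 to 137463233. Wt1 (ENSMUSG00000016458) lies on the plus strand of chromosome 2 from 105126529 to 105173616. Synpo has the identifier ENSMUSG00000043079. Kirrel2, which encodes a relative of nephrin, starts 625 bases from Nphs1 on the opposite strand and was listed at no more than 0.06 FPKM in any pool. Exons of Nphs1 overlap those of the antisense gene Nphs1os and of the pseudogene Rps12-ps4 on the other strand. Nphs1os was at no more than 0.18 FPKM, while Rps12-ps4 averaged 3.64 FPKM in chow and 2.83 in EpSA. Whether counting used strand is not given in the sources used here, so reads of Nphs1 and these genes may be mixed. Exons of Cdkn1c overlap Gm44732, at no more than 0.1 FPKM.

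Promoters are shown for Nphs1 and Ptpro, the 2 of the 6 members with a window in the reference table. Over the 14 pools r between them was 0.86. Each is the 250 bases before the RefSeq start (GRCm38.p6), read along the plus strand, at chr7:30459808-30460057 for Nphs1 and chr6:137252049-137252298 for Ptpro. The whole Nphs1 window lies inside the gene as the Ensembl annotation draws it, so it is not upstream of the Ensembl start.
Nphs1: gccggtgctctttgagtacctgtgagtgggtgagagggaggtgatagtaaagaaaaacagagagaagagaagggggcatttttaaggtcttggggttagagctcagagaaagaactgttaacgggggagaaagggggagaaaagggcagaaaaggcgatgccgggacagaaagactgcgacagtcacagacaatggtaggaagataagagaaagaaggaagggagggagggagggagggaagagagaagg
Ptpro: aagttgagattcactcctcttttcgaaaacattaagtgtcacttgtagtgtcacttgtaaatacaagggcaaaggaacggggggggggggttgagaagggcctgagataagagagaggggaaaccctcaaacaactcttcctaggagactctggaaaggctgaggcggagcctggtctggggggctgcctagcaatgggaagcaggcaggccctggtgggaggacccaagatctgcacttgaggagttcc
No letters are in capitals because no searched motif matched. The motifs, on either strand, were GCGTGGGAG and GCGGGGGCG, zinc finger sites of the WT1 and EGR1 kind, and CACGTG, the E-box used by the circadian clock. They were found in 0.405%, 2.57% and 6.02% of the 32851 promoter windows of the same length. The Nphs1 window was 50.8% G and C and the Ptpro window 53.6%, near the median of 52.4% over all windows. The absence of a match says only that these letters are not in these windows.

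Between 27796 and 29783 genes were above 0 in a pool. Tests covered the 13344 genes whose mean reached 1 FPKM. All 6 members passed that floor in each diet. The proximal tubule gene Slc34a1, at 771 FPKM or more in every pool, matched the label of kidney. Adrenal cortex genes summed to 110 FPKM in the EpSA pool of ZT 9 and to at most 1.91 in the other pools. In the chow pool of ZT 21, the kidney androgen-regulated transcript Kap took 14.5% of all FPKM, against 7.12% to 11.3% elsewhere.

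The levels of the members kept a fixed order. By FPKM, a unit per length, Podxl was highest, followed by Cdkn1c, Synpo, Nphs1, Ptpro and Wt1, and this order held in 14 of 14 pools. Podxl ranged from 30.7 to 50.3 FPKM over all pools and stood far above the rest. Neighbours lower in the order were close. In chow, Nphs1 (1.79 to 2.90 FPKM) and Ptpro (1.50 to 2.04) overlapped, and in EpSA Ptpro (1.88 to 2.60) met Wt1 (1.22 to 1.88). Wt1, the transcription factor, had the lowest level, with a mean over pools of 1.15 FPKM in chow and 1.50 in EpSA. Over the 7 pools of a diet, the coefficient of variation of the members lay between 9.99% (Podxl in chow) and 16.1% (Nphs1 in EpSA).

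**Figure D1:**
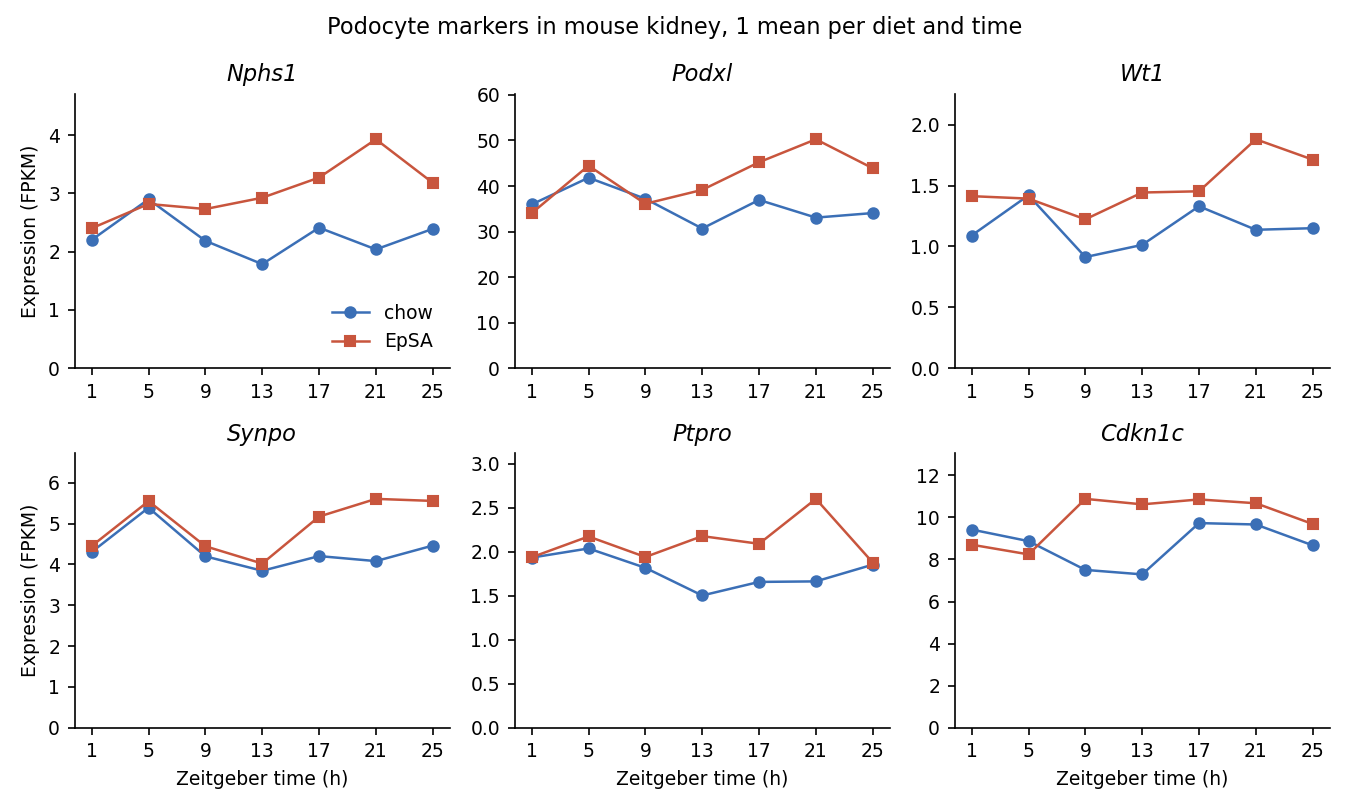
Expression in FPKM (y axis, from 0) of the 6 podocyte markers by zeitgeber time in hours (x axis), with circles for chow and squares for EpSA; each point is the authors' mean for 1 diet and time, with no error available. In 5 of 6 genes the highest EpSA pool is that of ZT 21, and in 5 of 6 the highest chow pool is that of ZT 5.

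The diets were compared to ask whether podocyte transcripts differed between chow and EpSA kidneys. All 6 members were higher on average in EpSA, with differences between 0.15 and 0.30 on the log2(FPKM + 1) scale, and none passed the test over all genes. The median difference of the members was 0.19, against -0.01 over all genes tested. Of all genes tested, 46.1% were above 0. At an adjusted p under 0.05 in limma, 0.157% of genes were called higher in EpSA and 0.0749% lower, and 0 of the 6 members were among them. These were 21 and 10 genes, against 16 and 4 with median scaling and 63 and 18 with quantile normalization. At an unadjusted p under 0.05, 5 of the 6 members were higher, where 8.58% of all genes were. The members were proposed with earlier results of these data in view, so their shared direction is a description. The error in these tests is the spread of the diet difference between times, since no spread between mice is in the files. No member had its EpSA pools wholly above its chow pools.

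Nephrin showed the widest difference. Nphs1 was at 2.20, 2.90, 2.19, 1.79, 2.41, 2.04 and 2.39 FPKM in chow and at 2.40, 2.82, 2.73, 2.93, 3.27, 3.93 and 3.18 FPKM in EpSA, in order from ZT 1 to ZT 25. The pools of the diets were near each other at ZT 1 and ZT 5 and apart from ZT 9 on, and 4 of the EpSA pools lay above every chow pool. The mean level was 2.27 ± 0.35 FPKM in chow and 3.04 ± 0.49 in EpSA (SD over 7 times), a ratio of 1.34. The fitted difference was 0.30 ± 0.08 on the log2(FPKM + 1) scale (SE), with EpSA higher at 6 of 7 times and an adjusted p of 0.117 in limma. The overlapping pseudogene Rps12-ps4 had its mean lower in EpSA, as given above, and the part of its reads in the Nphs1 values was not tested.

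Podxl was at 36.0, 41.8, 37.2, 30.7, 36.9, 33.1 and 34.1 FPKM in chow and at 34.0, 44.5, 36.1, 39.2, 45.2, 50.3 and 43.9 in EpSA. As for Nphs1, chow was lowest at ZT 13 and EpSA highest at ZT 21, while EpSA was below chow at ZT 1 and ZT 9. The difference was 0.22 ± 0.08 (SE, adjusted p = 0.192 in limma), with EpSA higher at 5 of 7 times. Ptpro, the phosphatase, was between 1.50 and 2.04 FPKM in chow (median 1.82) and between 1.88 and 2.60 in EpSA (median 2.09). Its EpSA level was above chow at 7 of 7 times, as for 3.81% of all genes, by as little as 0.002 on the log2 scale at ZT 1 and 0.01 at ZT 25. The fitted difference was 0.16 ± 0.07 (SE, adjusted p = 0.222 in limma).

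Synpo, the actin-binding member, was between 3.84 and 5.39 FPKM in chow (median 4.20) and between 4.02 and 5.60 in EpSA (median 5.17). The diets were nearly equal from ZT 1 to ZT 13, where EpSA was above chow by 0.04, 0.04, 0.07 and 0.05, and apart at ZT 17, ZT 21 and ZT 25, by 0.25, 0.38 and 0.26. Over all times the difference was 0.15 ± 0.05 (SE, adjusted p = 0.177 in limma), with EpSA higher at 7 of 7 times.

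Among the nuclear members, Wt1 was at 1.09, 1.42, 0.913, 1.01, 1.33, 1.14 and 1.15 FPKM in chow and at 1.41, 1.39, 1.22, 1.44, 1.45, 1.88 and 1.71 in EpSA. Its chow pools peaked at ZT 5, where the diets were level, and EpSA was higher at 6 of 7 times. The difference was 0.22 ± 0.06 (SE, adjusted p = 0.129 in limma), which understates the change of so low a gene: the ratio of the mean FPKM was 1.31. Cdkn1c was at 9.42, 8.87, 7.50, 7.29, 9.73, 9.66 and 8.67 FPKM in chow and at 8.70, 8.24, 10.9, 10.6, 10.9, 10.7 and 9.68 in EpSA. It was lower in EpSA at ZT 1 and ZT 5 and higher at the other times, with its widest gaps at ZT 9 and ZT 13 (0.48 and 0.49 on the log2 scale). The difference was 0.17 ± 0.08 (SE, adjusted p = 0.28 in limma), and was 0.12 without ZT 9 and also 0.12 without ZT 13. The EpSA pool of ZT 9 held the adrenal cortex genes and that of ZT 13 did not (110 and 1.49 FPKM summed). The part of adrenal RNA in the Cdkn1c value of ZT 9 was not tested.

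By time, the members were close to level between the diets early in the first day and apart later. Their median difference was 0.02, 0.01 and 0.14 at the first 3 times (ZT 1, 5 and 9). It was then 0.34, 0.23, 0.43 and 0.28 (ZT 13, 17, 21 and 25). Of the 6 members, 4, 3 and 5 were higher in EpSA at ZT 1, 5 and 9, and 6 at each time from ZT 13 on. Of all genes tested, 43.2%, 40.4% and 43.4% were higher at the first 3 times, and 37.9%, 57.6%, 59.6% and 52.3% at the later 4. The median of all genes tested stayed near 0, from -0.05 at ZT 13 to 0.07 at ZT 21. ZT 1 and ZT 25 are the same clock hour a day apart, and their median differences of 0.02 and 0.28 were from different pools at that hour. Podxl at ZT 25 minus ZT 1 was -0.08 in chow and 0.36 in EpSA, and Nphs1 was 0.08 and 0.30. For Ptpro it was -0.04 and -0.03, and for Wt1, Synpo and Cdkn1c 0.04, 0.04 and -0.11 in chow and 0.17, 0.27 and 0.14 in EpSA, while the median absolute change of all genes was 0.12 in each diet. A single pool per diet and time allows no test of any one time. At ZT 21, where the gap was widest for 5 members, the chow pool was also the one with the highest share of Kap, and its part in the gap was not tested.

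**Figure D2:**
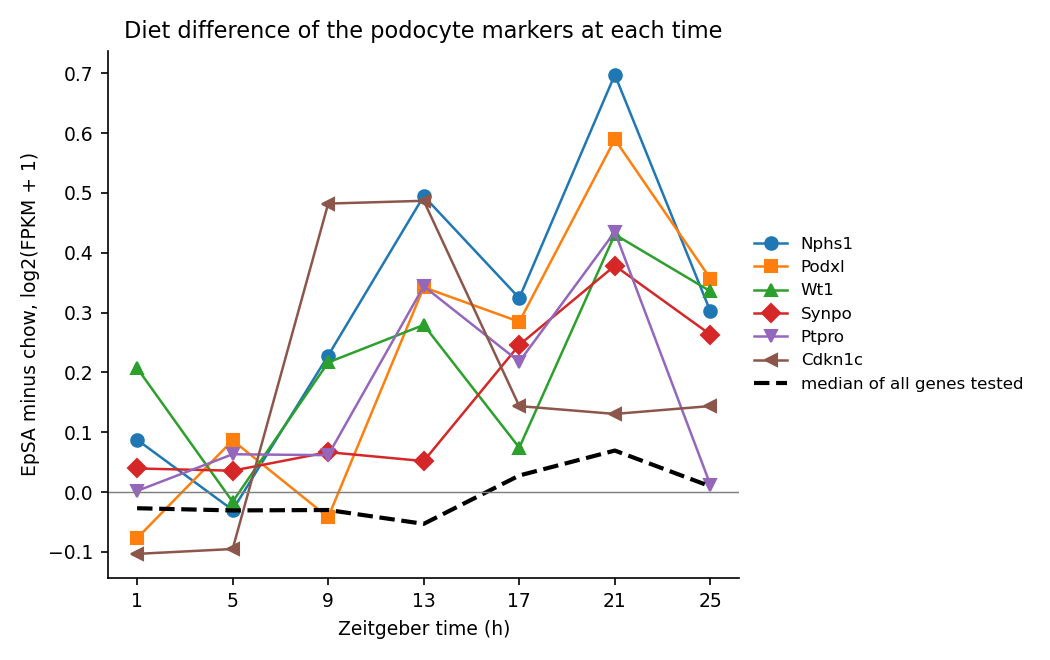
Difference of EpSA minus chow on the log2(FPKM + 1) scale (y axis) at each zeitgeber time in hours (x axis) for the 6 podocyte markers; the dashed line is the median of the 13344 genes tested, and points have no error bars because each is a pair of single pools. The members lie between -0.10 and 0.09 at ZT 5 and between 0.13 and 0.70 at ZT 21.

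Daily rhythm was examined within each diet with a cosine of 24 h. No member passed at an adjusted p under 0.05 in limma in chow, where 0.0899% of all genes did, or in EpSA, where 0.045% did. At an unadjusted p under 0.05 the count was 1 of 6 in chow, namely Cdkn1c, and 0 of 6 in EpSA, against 10.3% and 8.72% of all genes. In chow, log2 amplitudes of the members ran from 0.05 for Wt1 to 0.17 for Cdkn1c. In EpSA they ran from 0.07 for Ptpro to 0.16 for Nphs1. From lowest to highest chow pool, the members spanned 0.28 (Ptpro) to 0.48 (Nphs1) on the log2 scale, against a median of 0.33 over all genes tested. Across the EpSA pools the span was 0.32 (Ptpro) to 0.55 (Podxl), against a median of 0.31. Cdkn1c had its fitted peak at 21.7 h in chow, with an amplitude of 0.17 ± 0.05 (SE, adjusted p = 0.47 in limma), and at 15.5 h in EpSA, with 0.16 ± 0.05 (adjusted p = 0.576). The rhythm of no member differed between diets at an adjusted p under 0.05 in limma, as for all genes (0%), and Cdkn1c alone of the 6 had an unadjusted p under 0.05, where 4.41% of all genes did. In the authors' deposited table the meta2d q-value was 1 for all 6 members in EpSA and for 5 in chow, and 0.763 for Ptpro in chow. A q-value under 0.05 was given to 0% of the tested genes in chow and 0.015% in EpSA. The lowest p-values in the authors' deposited table were 0.0234 for Ptpro in chow, with a phase of 4.48 h, and 0.0308 for Wt1 in EpSA, with a phase of 22.7 h. A meta2d p under 0.05 was deposited by the authors for 11.8% of the tested genes in chow and 9.82% in EpSA.

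The members varied together over the 14 pools, Cdkn1c less closely than the others. Over the 14 pools, Pearson r of log2(FPKM + 1) between pairs of the other 5 members ran from 0.67 to 0.92 (10 pairs, median 0.81). The closest pair was Nphs1 and Podxl at 0.92, and r was 0.90 within each diet. Within a diet of 7 pools, r of other pairs of these 5 ran from 0.31 (Synpo and Ptpro in EpSA) to 0.93 (Nphs1 and Synpo in chow). Synpo and Ptpro were at 0.84 in chow. Wt1 and Ptpro were at 0.34 in chow and 0.55 in EpSA. In chow, Wt1 ran closer to Cdkn1c (0.65) than to Podxl (0.56). Over the 14 pools, pairs with Cdkn1c ran from 0.25 with Synpo to 0.65 with Nphs1 (5 pairs, median 0.50). Within a diet they ran from -0.23 with Synpo in EpSA to 0.65 with Wt1 in chow. Pools share the diet, the time and their libraries between genes, so these values only describe likeness. On the log2 scale, Cdkn1c lay above the mean of the other 5 members in every pool. This excess was smallest at ZT 5 in each diet, at 0.72 in chow and 0.59 in EpSA. In chow it was nearly as small at ZT 9 (0.74). The excess was largest at ZT 21 in chow (1.10) and at ZT 9 in EpSA (1.12). Its tested neighbours in the imprinted region of chromosome 7, Kcnq1, Phlda2 and Slc22a18, differed by -0.06, -0.07 and -0.19 between the diets, and 0 of 3 passed in limma over all genes.

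**Figure D3:**
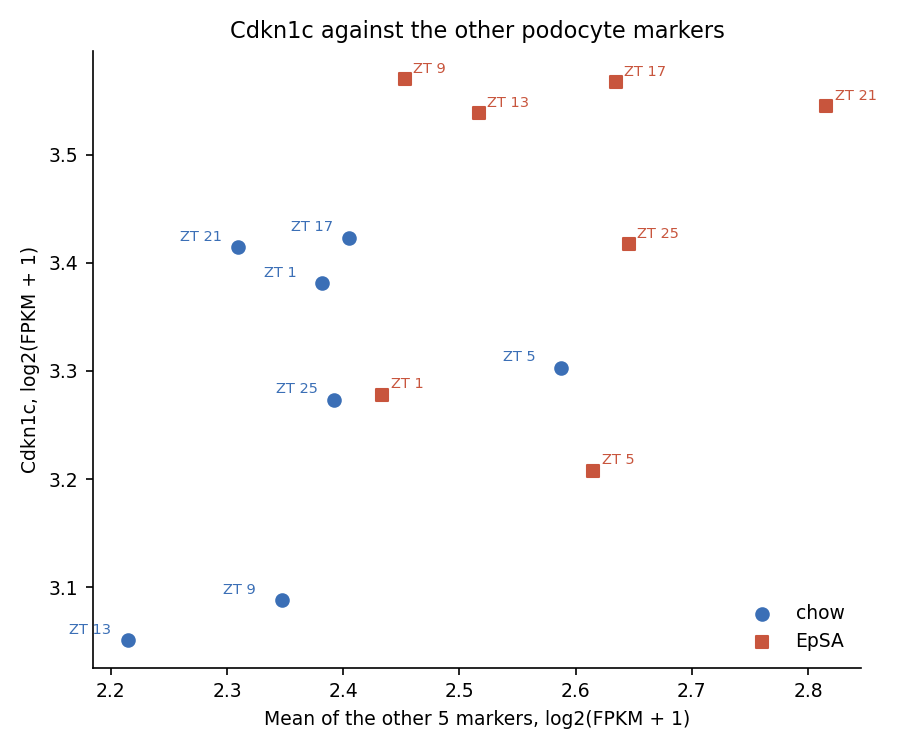
Cdkn1c (y axis) against the mean of the other 5 podocyte markers (x axis), each on the log2(FPKM + 1) scale, with 1 point per pool, circles for chow and squares for EpSA, labelled by zeitgeber time. At ZT 5 Cdkn1c is low for the level of the other markers, and the EpSA pools of ZT 9, 13, 17 and 21 hold the 4 highest Cdkn1c values while the others spread from 2.45 to 2.82.

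The genes whose pattern over the 14 pools was most like the mean standardised profile of the members were on none of the podocyte lists. They were Zfp760 (r = 0.95), Slc7a8 (0.93), Tubgcp5 (0.93), Hook3 (0.93), Ift172 (0.92), Itsn2 (0.92), Zfp329 (0.92), Arap3 (0.92), Prkcd (0.91) and Ttc14 (0.91), among 13338 genes ranked. Slc7a8 is a neutral amino acid transporter of the basolateral tubule membrane and Ift172 a part of cilia. Their diet differences ranged from 0.11 to 0.34 on the log2 scale. Of the fixed podocyte lists, the highest in this ranking was Pla2r1 at rank 42 (r = 0.87), followed by Tjp1 at rank 148 and Vegfa at rank 158.

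Other genes of the podocyte and of the glomerulus were examined from lists of genes fixed by role. Of 6 tested slit diaphragm genes, 0 passed in limma over all genes in either direction and 5 were above 0, with a median difference of 0.11. The junction protein gene Tjp1 was at 0.15, Kirrel, which encodes a nephrin partner, at 0.12 and the kinase gene Fyn at 0.09. Among 8 cytoskeleton genes, 0 passed and the median was 0.04, with Clic5 at 0.16, the intermediate filament gene Nes at 0.15, the formin gene Inf2 at 0.08 and Myo1e at 0.04. Mean levels in this list reached 118 FPKM in chow, against 35.7 for Podxl, the highest of the members. The part of other cell types in the values of the podocyte lists was not tested. Among 5 transcription factors, 0 passed and the median was 0.04, with Tcf21 at 0.16, Foxc2 at 0.05 and Dach1 at -0.02.

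Of all these podocyte genes, Vegfa had the lowest adjusted p. It encodes the endothelial growth factor that podocytes send to glomerular capillaries and that tubules also make. It was between 67.8 and 84.0 FPKM in chow and between 77.7 and 104 in EpSA, higher in EpSA at 7 of 7 times. The difference was 0.31 ± 0.05 (SE, adjusted p = 0.0579 in limma). Pla2r1 encodes a podocyte receptor known as an autoantigen of human membranous nephropathy. It was between 1.01 and 1.30 FPKM in chow and between 1.17 and 1.75 in EpSA, with EpSA higher at 7 of 7 times and a difference of 0.21 ± 0.06 (adjusted p = 0.134 in limma). Thsd7a, another such autoantigen, was below the floor for testing, at 0.547 to 0.753 FPKM in chow and 0.673 to 1.24 in EpSA, and is named after its values were seen. Of the 7 tested genes of this list 0 passed, 5 were above 0 and the median was 0.07, with Sema3g at 0.16 and Npnt at 0.07.

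Of 7 glomerular basement membrane genes 0 passed, 6 were above 0 and the median was 0.15, with Col4a5 at 0.20, Nid1 at 0.18, Lama5 at 0.17 and Col4a3 at 0.15. Of 8 endothelial genes 0 passed, 6 were above 0 and the median was 0.07, with Plat at 0.25, Ehd3 at 0.16, Cdh5 at 0.15 and Kdr at 0.09. Of 5 mesangial genes 0 passed, and the values ran from -0.06 to 0.06. The median of the 6 named markers, 0.19, was above those of these lists, and a difference between lists was not tested. Members and lists were chosen with earlier results of these data known, so this order is only a description.

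**Figure D4:**
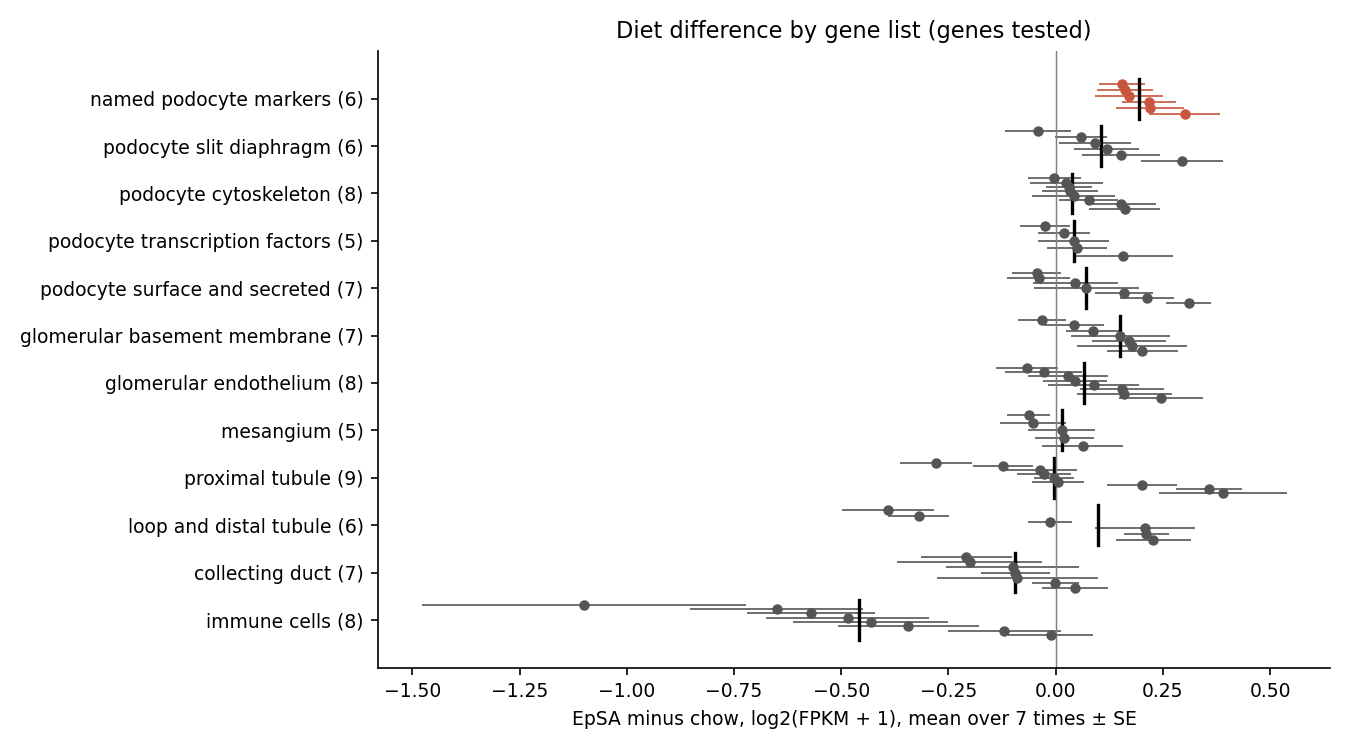
Difference of EpSA minus chow on the log2(FPKM + 1) scale (x axis) for every tested gene of 12 lists (y axis, number of tested genes in brackets), with 1 point and its SE per gene and a black bar at the median of each list. The 6 named markers lie from 0.15 to 0.30, the means of the immune cell genes below 0, and the tubule lists on either side of 0.

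Genes of other cell types also differed in mean between the diets. In the tubule, Slc5a2 and Slc5a12, transporters of the early proximal tubule, were at 0.36 and 0.39. Slc7a13, a transporter of the straight proximal tubule, was at -0.28, and Gatm at 0.20. The other 5 proximal genes, Slc34a1, Slc22a6, Lrp2, Cubn and Aqp1, lay between -0.12 and 0.01. In the thick ascending limb, Umod stood at -0.39 and Slc12a1 at -0.32, while Slc12a3 and Trpm6, genes of the distal convoluted tubule, were at 0.23 and 0.21. None of the 9 proximal or 6 loop and distal genes passed in limma over all genes, with 4 and 3 of them above 0. Slc5a2 followed the profile of the podocyte markers over the pools with r = 0.88, at rank 29, and Slc7a13 ran opposite to it with r = -0.68. Of 7 collecting duct genes 0 passed and 6 were below 0, with Fxyd4 at -0.21, Aqp4 at -0.20 and Aqp2 at -0.10.

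Of 8 tested immune cell genes, 0 passed and 8 had a mean difference below 0, with a median of -0.46. These means rest largely on the chow pools of ZT 1 to ZT 13. Cd74 was at 604, 273, 301 and 796 FPKM in those chow pools and at 99.0 to 116 in the later ones, against 101 to 133 in all EpSA pools. At ZT 17, 8 of 8 immune genes were higher in EpSA, and at ZT 21 7 of 8. Of all genes tested, 57.6% and 59.6% were higher at these times. At ZT 25 the signs were mixed, from -0.51 for Lyz2 and -0.41 for C1qa to 0.14 for Adgre1. The median gap of the podocyte markers was widest at ZT 21. Over all times the antigen presentation gene Cd74 was at -1.10, Lyz2 at -0.65, C1qa at -0.57 and C1qb at -0.48. The sum of the 9 immune genes ran from 168 to 919 FPKM in chow and from 172 to 225 in EpSA. Mesothelial genes, listed since mesothelium also makes Wt1 and Podxl, summed to between 40.9 and 51.6 FPKM in chow and between 33.6 and 44.3 in EpSA. Most of that sum was Gpm6a, and the defining gene Msln was at no more than 0.737 FPKM in any pool. Fat tissue genes summed to between 66.2 and 131 FPKM in chow and between 39.9 and 143 in EpSA. The part of these cell types in the values of the podocyte markers was not tested.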

How the data were processed

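Libraries of mouse kidney RNA gave read pairs (150 bases each), per the labels. Not given in the sources used here: aligner, counting tool, build and annotation. Expression was deposited as FPKM values, a unit taken from the values (not whole, sums that differ, lowest values that fall with gene length). Last decimals of 0, 3 or 7 in thousandths show them to be means, read as those over the 3 mice listed. The EpSA means are headed LEOA and were matched to EpSA through the sample descriptions. The authors' deposited tables also hold p-values and q-values of rhythm (meta2d), phases in hours and an amplitude ratio, of which the ratio is not reported. Identifiers were matched to symbols for 52073 of 56691 genes.

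Genes whose mean reached 1 FPKM (13344) were fitted on log2(FPKM + 1), with a pseudocount of 1, by limma 3.58.1 with a mean-variance trend in R 4.3.3. The diet model took time as a factor (6 residual degrees of freedom), the rhythm fits a 24 h cosine and sine (4), and the difference of rhythm their interaction with diet (8). P-values were adjusted by Benjamini-Hochberg over all genes tested. The 14 means entered as samples, so p-values measure no spread between mice. The error of the diet model is the spread of the diet difference between times. The error of the rhythm fits is what the cosine and sine leave over. The fits were tested on simulated data, with calls at an adjusted p under 0.05. At a size of 0.25 log2, 20 of 50 diet differences were recovered, 4 of 50 rhythms in each diet and 3 of 50 differences of rhythm. At 0.5 log2 these were 39 for diet, 28 for rhythm in chow, 36 in EpSA and 27 for the difference of rhythm. A member that did not pass may therefore still differ by the sizes seen here. Sequences come from RefSeq and coordinates from GENCODE. Named genes are the 6 members, up to 4 per list by size of difference, and the 10 most like the members. Some list genes that this rule names are counted in their lists but not reported here. The members and lists were chosen with earlier results of these data known. Alternatives covered the pseudocount, the filter, scaling and single times left out. All else was done in Python 3.11.15 (scipy 1.17.1, numpy 2.4.6, matplotlib 3.10.9, pandas 2.3.3).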

Additional observations from a re-analysis of the deposited data

Results flagged for a closer look

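In 2 of 12 sets of 7 pools (6 members in each diet), the highest pool lay far from the next by Dixon's criterion, which chance meets in about 1 of 20 sets. Synpo in chow was at 5.39 FPKM at ZT 5, with a gap of 0.600 of the whole range above the critical value for 7 pools. Without ZT 5 in either diet, the difference of Synpo between the diets was 0.17 on the log2(FPKM + 1) scale. Ptpro in EpSA was at 2.60 FPKM at ZT 21, with a gap of 0.585 of the range. Without ZT 21, the difference of Ptpro was 0.12, against 0.16 with all times.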

How the results depend on the processing

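Under a pseudocount of 0.1, no filter on low values, median scaling, quantile normalization and each time left out, the diet difference of each of the 6 members stayed above 0 (66 of 66 values, from 0.12 to 0.40 on the log2 scale). The adjusted p in limma lay between 0.0949 and 0.537, so no member passed under any of them. The counts of members called for rhythm in chow, rhythm in EpSA and the difference of rhythm were 0 under the same alternatives and, within each diet, by the q-value of the authors' deposited table. Exact two-sided sign flips used the 7 differences by time, so they rest on the same spread of differences and compare no other gene. These sign flips gave an unadjusted p of 0.0156 for Synpo and Ptpro, the smallest they can give. The exact p was 0.0312 for Nphs1 and Wt1, 0.0781 for Podxl and 0.109 for Cdkn1c. Of all genes tested, 3.81% were higher in EpSA at 7 of 7 times and 12.4% at 6 or 7. Over all genes, limma called 31 for diet, against 81 with quantile normalization, 20 with median scaling, 0 without the filter (4237 at an unadjusted p under 0.05) and 0 to 7 with a time left out. For rhythm it called 12 in chow and 6 in EpSA, and 0 in each without the filter (3077 and 2743 at an unadjusted p under 0.05). With a time left out it called 0 to 3 in chow and 0 to 5 in EpSA, and quantile normalization gave 7 and 4. No paired analysis was possible because the columns are means over mice and carry no replicate numbers, so no mice could be matched and the diets were paired by time alone. Leaving out single mice was not run for the same reason. Depth is unknown, so the counting error of low genes such as Wt1 cannot be given.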
